A study of Mus musculus with 8 samples.

Results

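The genes described here encode the core of Polycomb repressive complex 2 (Ezh2, Eed and Suz12) and the defining and catalytic subunits of the variant Polycomb repressive complex 1 known as PRC1.6 (L3mbtl2, Max, Mga, Pcgf6, E2f6, Rnf2 and Ring1). They are 10 of the 21444 genes with counts. They were chosen by name as known subunits, with earlier results of these data known. RNA was measured in mouse primordial germ cells, the embryonic precursors of eggs and sperm, sorted at embryonic day 11.5 by a green fluorescent reporter driven by part of the Oct4 promoter. The 4 Prmt5 KO libraries had the genotype Blimp1Cre;Prmt5flox/flox and the 4 Control libraries Blimp1Cre;Prmt5flox/+, both on a mixed C57BL/6 and 129 background. Control cells therefore carry the Cre and 1 floxed allele as well, and Cre acts where Blimp1 (Prdm1) is active, which includes early germ cells. Nothing in the labels ties a library to its own embryo or litter. The p-values therefore weigh differences against the spread among these 8 libraries, part of which may be technical. Each library was labelled with an RNA input of 50 pg.

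PRC2 places methyl groups on lysine 27 of histone H3, and PRC1 complexes place ubiquitin on histone H2A through the RING proteins Rnf2 (RING1B) and Ring1. Most PRC1 complexes differ in their PCGF subunit. PRC1.6 holds Pcgf6 and is unusual in having sequence-specific DNA-binding proteins, the Max and Mga pair and E2f6, which in mouse embryonic stem cells bring it to promoters of germline and meiotic genes and help keep them silent. In primordial germ cells many of these germline genes become active around the age studied, after DNA demethylation. Prmt5, the gene removed here, encodes an arginine methyltransferase that acts on histones and on splicing proteins.

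The promoters below show the letters that the DNA-binding members recognise. Capitals mark CACGTG, the E-box bound by Max and Mga pairs, which reads the same on both strands, and TCCCGC, the core of the E2F6 site, printed as GCGGGA where it lies on the other strand. The first 4 are germline genes known as PRC1.6 targets (meiotic chromosome proteins Hormad1 and Sycp3, the piRNA pathway protein Mael and the germ cell ADP/ATP carrier Slc25a31), and the last 3 are those of the 4 members with such letters that bind DNA or belong to PRC2. Sequences are 5′ to 3′ on the gene's strand, from RefSeq promoters on GRCm38.p6.
Hormad1, chr3:95559567-95559676, plus strand: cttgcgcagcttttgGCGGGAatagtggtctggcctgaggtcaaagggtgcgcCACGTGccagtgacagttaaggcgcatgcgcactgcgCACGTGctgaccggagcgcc
Sycp3, chr10:88459437-88459557, plus strand: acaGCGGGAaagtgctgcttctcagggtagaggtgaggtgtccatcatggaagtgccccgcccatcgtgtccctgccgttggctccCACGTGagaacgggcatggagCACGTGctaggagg
Mael, chr1:166238874-166238974, minus strand: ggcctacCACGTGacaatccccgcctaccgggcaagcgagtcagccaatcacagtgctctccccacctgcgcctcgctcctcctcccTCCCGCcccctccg
Slc25a31, chr3:40708761-40708821, plus strand: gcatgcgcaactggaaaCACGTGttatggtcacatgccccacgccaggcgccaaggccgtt
E2f6, chr12:16810855-16810960, plus strand: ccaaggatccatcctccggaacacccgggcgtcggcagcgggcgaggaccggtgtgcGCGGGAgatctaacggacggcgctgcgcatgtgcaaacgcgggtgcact
Suz12, chr11:79992996-79993105, plus strand: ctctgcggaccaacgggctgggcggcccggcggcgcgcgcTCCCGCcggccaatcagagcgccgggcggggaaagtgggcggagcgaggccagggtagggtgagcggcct
Max, chr12:76962234-76962263, minus strand: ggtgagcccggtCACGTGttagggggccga

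Windows of 250 bases before to 50 bases after each RefSeq start site were searched on both strands. In the listed germline genes with both motifs, these share no bases. Over all genes the motifs could share a base, which was not checked. At least 1 promoter with CACGTG was found for 11 of the 22 listed germline genes that had a promoter in the table (50.0%), against 8.09% of 27025 genes. TCCCGC was found for 10 of the 22 (45.5%), against 22% of genes, and both motifs for 7 of the 22 (31.8%), against 2.32% of genes. Among the developmental regulators that PRC2 is known to repress in mouse embryonic stem cells, CACGTG was found for 4 of 20 genes (20%) and TCCCGC for 9 of 20 (45.0%). Of the 10 members, Max held CACGTG (10%), and Suz12, E2f6 and Rnf2 held TCCCGC (30.0%). A match describes these letters and not a bound site.

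Library depth, as the sum of the gene values, was 4318972 to 6549504 counts in the 4 Prmt5 KO libraries and 1811428 to 5844441 counts in the 4 Control libraries, with 14400 to 17425 genes detected in a library. Control 2 and Control 3, at 2289239 and 1811428 counts, were shallower than every Prmt5 KO library. They also had the fewest genes detected, 14763 and 14400. Prmt5 itself had 39.9, 40.5, 35.3 and 26.4 CPM (the count scaled to library size by TMM) in Prmt5 KO 1 to 4, against 89.4, 171, 172 and 118 CPM in Control 1 to 4, giving a log2 fold change of -1.95 ± 0.272 (SE, adjusted p 0.0389 over 10990 genes by edgeR's quasi-likelihood test). All 4 Prmt5 KO libraries lay below all 4 Control libraries. The call held without Control 1 and was lost without each of the other 7 libraries in turn (adjusted p 0.0578 to 0.234). All 14 listed markers of primordial germ cells passed the filter on low counts, with a summed level of 4223 to 4768 CPM in Prmt5 KO and 3825 to 4900 CPM in Control. The most abundant were Kit, a receptor needed for germ cell survival and migration, at 1060 ± 69.2 CPM in Prmt5 KO and 1005 ± 102 CPM in Control, and Dppa4, a nuclear protein of pluripotent and germ cells, at 731 ± 57.6 CPM in Prmt5 KO and 759 ± 33.3 CPM in Control (SD, n = 4 each).

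Prmt5 KO 1 stood apart in markers of the somatic gonad and mesonephros, whose summed level was 559 CPM in Prmt5 KO 1 and 21.2 to 46.5 CPM in the other Prmt5 KO libraries, against 23.2 to 43.3 CPM in Control. Of the 10 markers, 6 were tested, all with a log2 fold change above 0. None was called by edgeR, DESeq2 or limma voom, and 3 had an unadjusted p under 0.05. Among all genes tested, 52.7% lay above 0 and 8.15% had such a p. The smooth muscle actin Acta2 had 208 CPM in Prmt5 KO 1 and 2.71 to 5.95 CPM in the other Prmt5 KO libraries, against 3.72 to 7.13 CPM in Control. Col3a1, a collagen of connective tissue, had 115 CPM in Prmt5 KO 1 and 2.13 to 4.98 CPM in the other Prmt5 KO libraries, against 2.46 to 9.87 CPM in Control. Nr5a1, a defining factor of somatic gonad cells, had 14.9 CPM in Prmt5 KO 1 and at most 0.549 CPM in any other library. Summed endothelial markers (5 listed, 2 tested) reached 19.6 to 81.1 CPM in Prmt5 KO and 15.9 to 37.5 CPM in Control, and the receptor Tek had 72.4, 12.2, 53.7 and 71.0 CPM in Prmt5 KO 1 to 4, against 28.9, 4.46, 7.68 and 8.09 CPM in Control 1 to 4 (log2 fold change 2.05, adjusted p 0.409 by edgeR and 0.0430 by DESeq2). The secreted endothelial protein Egfl7, counted on a transcript annotated for nonsense-mediated decay, was at 5.43 ± 2.49 CPM in Prmt5 KO and 12.4 ± 6.87 CPM in Control. The defining markers Cdh5, Kdr and Tie1 were at most 5.80 CPM in any library. The part of these cells in the results below was not tested. Of 6 blood and macrophage markers, 1 was tested: Csf1r, a macrophage receptor, at 23.7 ± 14.2 CPM in Prmt5 KO and 33.8 ± 9.42 CPM in Control (SD, n = 4 each), which shares 873 exon bases with Hmgxb3, while the haemoglobin genes Hba-a1, Hbb-y and Hbb-bt had no listed count in any library.

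All 10 Polycomb members were expressed and passed the filter on low counts. None was called higher or lower in Prmt5 KO than in Control: 0 of 10 passed an adjusted p of 0.05 by edgeR, DESeq2 or limma voom, and 0 of 10 had an unadjusted edgeR p under 0.05, with Mga nearest at 0.0508. Mga had an unadjusted p under 0.05 in 9 of 17 alternatives, among them DESeq2 (0.0346), limma voom (0.0487) and edgeR without Prmt5 KO 4 (0.0139). Of all 10990 genes tested, edgeR called 0.0273% (0.0182% higher and 0.0091% lower in Prmt5 KO), DESeq2 called 1.02% of those it gave an adjusted p, and 8.15% had an unadjusted p under 0.05. For each member the Prmt5 KO libraries overlapped the Control libraries, whereas for 4.9% of all genes they did not. The log2 fold change was above 0 for 7 members and below 0 for 3, between -0.24 for L3mbtl2 and 0.54 for Mga, with a median of 0.13. Over all genes tested the median was 0.03 and 52.7% lay above 0. In bulk RNA from sorted cells, a smaller share of cells with a transcript and less of it per cell cannot be told apart.

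**Figure D1:**
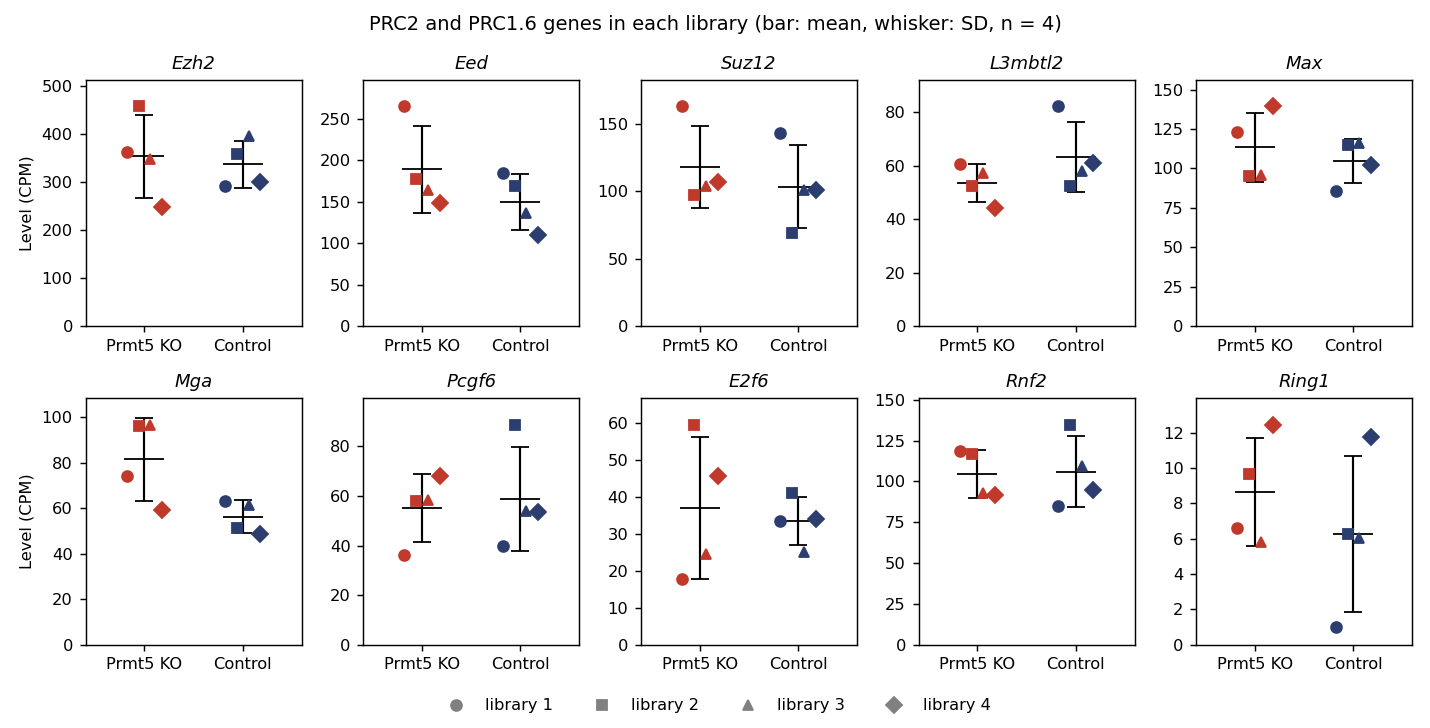
Level of each Polycomb member in every library, in CPM on a linear axis from 0, with Prmt5 KO left of Control in each panel, a bar for the group mean and whiskers for the SD (n = 4). The 4 Prmt5 KO and 4 Control libraries overlap for all 10 genes; Mga comes nearest to separating, with 3 Prmt5 KO libraries at 74.0 to 96.7 CPM above the highest Control library at 63.2 CPM.

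Ezh2, the methyltransferase of PRC2 (ENSMUSG00000029687, GRCm38 chromosome 6, 47530139 to 47595341, minus strand), was the most abundant member, also per transcript length. It had 362, 459, 348 and 247 CPM in Prmt5 KO 1 to 4, against 293, 358, 397 and 301 CPM in Control 1 to 4. The highest and the lowest of the 8 libraries were both Prmt5 KO, and the groups overlapped throughout. The means were 354 ± 86.5 CPM in Prmt5 KO and 337 ± 49.3 CPM in Control (SD, n = 4 each), or a log2 fold change of 0.07 ± 0.185 (SE, 95% interval -0.33 to 0.47, edgeR adjusted p 0.964).

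Eed, the WD-repeat protein through which PRC2 binds methylated histone H3 (ENSMUSG00000030619, chromosome 7, 89954654 to 89980983, minus strand), had 265, 178, 164 and 149 CPM in Prmt5 KO 1 to 4, against 184, 169, 136 and 109 CPM in Control 1 to 4. Prmt5 KO 1 lay above every other library, and the other 3 Prmt5 KO libraries lay within the Control range. The log2 fold change was 0.34 ± 0.227 (SE, 95% interval -0.15 to 0.82, edgeR adjusted p 0.756), and it was 0.13 without Prmt5 KO 1.

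Suz12, the zinc finger scaffold of PRC2 (ENSMUSG00000017548, chromosome 11, 79993106 to 80034123, plus strand), had 163, 97.5, 104 and 107 CPM in Prmt5 KO 1 to 4, against 144, 68.7, 101 and 101 CPM in Control 1 to 4. Prmt5 KO 1 again stood highest, the library with somatic gonad markers, and the part of those cells in its Eed and Suz12 values was not tested. Between the groups, the log2 fold change of Suz12 came to 0.18 ± 0.256 (SE, 95% interval -0.37 to 0.74, edgeR adjusted p 0.911), and it was -0.01 without Prmt5 KO 1. Summed over the 3 core genes, PRC2 came to 791, 734, 616 and 503 CPM in Prmt5 KO 1 to 4, against 621, 596, 634 and 511 CPM in Control 1 to 4. The lowest sum was that of a Prmt5 KO library and the next lowest that of a Control library.

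Mga, the large scaffold of PRC1.6 that pairs with Max on the E-box (ENSMUSG00000033943, chromosome 2, 119897228 to 119969581, plus strand), had the largest log2 fold change of the 10 in the edgeR fit to all 8 libraries, although Ring1 exceeded it with limma voom, with a replicate block, without Control 4 and without Prmt5 KO 3. It had 74.0, 96.3, 96.7 and 59.3 CPM in Prmt5 KO 1 to 4, against 63.2, 51.3, 61.4 and 48.5 CPM in Control 1 to 4. Prmt5 KO 1 to 3 lay above every Control library, and Prmt5 KO 4 lay within the Control range. The means were 81.6 ± 18.3 CPM in Prmt5 KO and 56.1 ± 7.28 CPM in Control (SD, n = 4 each), or a log2 fold change of 0.54 ± 0.252 (SE, 95% interval -0.0021 to 1.08). Its unadjusted p was 0.0508 and its adjusted p 0.614 (edgeR), so the difference did not pass the test.

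Max, the partner shared by Mga and by Myc (ENSMUSG00000059436, chromosome 12, 76937269 to 76962201, minus strand), had 123, 94.96, 96.0 and 139.6 CPM in Prmt5 KO 1 to 4, against 85.9, 115, 116 and 102 CPM in Control 1 to 4. Prmt5 KO 1 and Prmt5 KO 4 were above all Control libraries, and the other 2 Prmt5 KO libraries were near the low end of the Control range. This amounts to a log2 fold change of 0.12 ± 0.211 (SE, 95% interval -0.34 to 0.57, edgeR adjusted p 0.943).

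E2f6, the E2F family repressor that binds DNA with a Dp partner (ENSMUSG00000057469, chromosome 12, 16810963 to 16839742, plus strand), varied most among Prmt5 KO libraries. It had 17.7, 59.7, 24.7 and 45.9 CPM in Prmt5 KO 1 to 4, against 33.6, 41.1, 25.2 and 33.9 CPM in Control 1 to 4. Prmt5 KO libraries 1 and 3 lay below, and 2 and 4 above, all Control libraries, a coefficient of variation of 52.1% in Prmt5 KO and 19.4% in Control, where the medians over all genes tested were 39.9% and 31.7%. The means were 37.0 CPM in Prmt5 KO and 33.5 CPM in Control, or a log2 fold change of 0.14 ± 0.402 (SE, 95% interval -0.73 to 1.01, edgeR adjusted p 0.968).

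Pcgf6, the PCGF subunit that defines PRC1.6 (ENSMUSG00000025050, chromosome 19, 47033617 to 47050906, minus strand), had 36.0, 58.1, 58.5 and 68.0 CPM in Prmt5 KO 1 to 4, against 39.7, 88.8, 53.8 and 53.5 CPM in Control 1 to 4. The lowest library was Prmt5 KO 1 and the highest Control 2. The log2 fold change was -0.09 ± 0.314 (SE, 95% interval -0.77 to 0.59, edgeR adjusted p 0.972).

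L3mbtl2, a malignant brain tumour domain protein that compacts chromatin (ENSMUSG00000022394, chromosome 15, 81663889 to 81688315, plus strand), had 60.6, 52.3, 57.4 and 44.1 CPM in Prmt5 KO 1 to 4, against 82.3, 52.2, 58.1 and 60.9 CPM in Control 1 to 4. Control 1 was highest and Prmt5 KO 4 lowest, with the remaining libraries intermixed. Between the groups, the log2 fold change came to -0.24 ± 0.259 (SE, 95% interval -0.80 to 0.31, edgeR adjusted p 0.858).

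Rnf2, a catalytic RING protein of PRC1 (ENSMUSG00000026484, chromosome 1, 151458004 to 151500955, minus strand), had 118, 117, 92.7 and 91.5 CPM in Prmt5 KO 1 to 4, against 84.9, 135, 110 and 94.5 CPM in Control 1 to 4. Both ends of the range were Control libraries. This amounts to a log2 fold change of -0.01 ± 0.215 (SE, 95% interval -0.48 to 0.45, edgeR adjusted p 0.992).

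Ring1, its paralogue (ENSMUSG00000024325, chromosome 17, 34020792 to 34024680, minus strand), was the scarcest member, with 39, 50, 39 and 50 reads in Prmt5 KO 1 to 4, against 6, 14, 11 and 67 reads in Control 1 to 4. Scaled, these are 6.59, 9.69, 5.80 and 12.5 CPM in Prmt5 KO, against 1.01, 6.25, 6.03 and 11.8 CPM in Control. Control 1 alone lay far below the rest. The log2 fold change was 0.46 ± 0.721 (SE, 95% interval -1.10 to 2.01, edgeR adjusted p 0.932), the widest interval of the 10. It was 0.087 without Control 1 and 1.00 without Control 4. Summed over the 7 PRC1.6 genes, the level was 437, 488, 432 and 461 CPM in Prmt5 KO 1 to 4, against 391, 489, 431 and 405 CPM in Control 1 to 4, so the highest and the lowest sums were both Control.

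**Figure D2:**
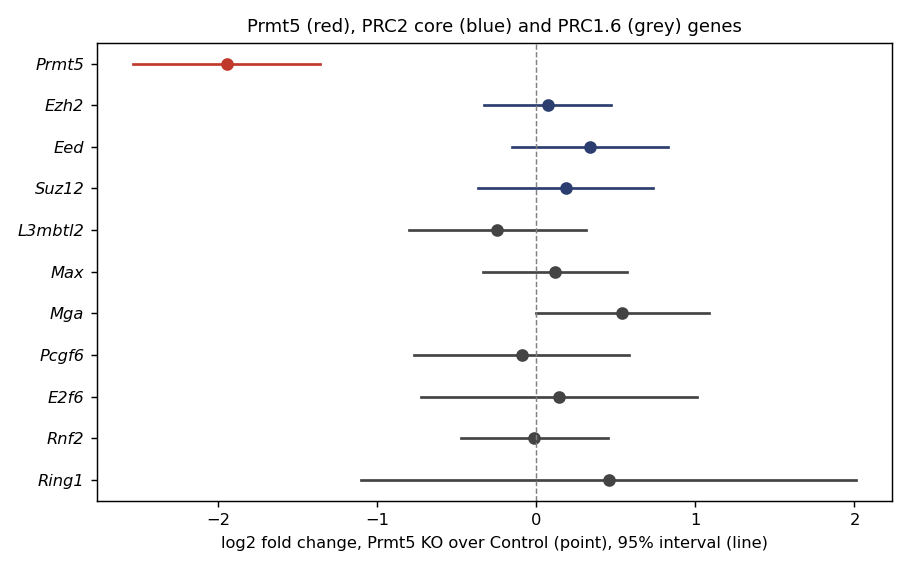
Log2 fold change of Prmt5 and of each member, Prmt5 KO over Control (points), with 95% intervals from edgeR (lines) and a dashed line at 0. Prmt5 lies at -1.95, and all 10 member intervals include 0, that of Mga (-0.0021 to 1.08) by little.

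Some of these counts may include reads of a neighbour, since no source used here gives the strand setting of the counting. Annotated exons on the opposite strand overlap the counted transcript of Ezh2 by 92 bases (Gm26625), Eed by 261 bases (E230029C05Rik), Suz12 by 178 bases (Gm26563) and L3mbtl2 by 558 bases (Chadl). The transcripts with the highest counts for L3mbtl2 and Ring1 are annotated as retained introns, and their coding transcripts had nearly the same counts: 2247 for L3mbtl2-201 against 2248 for L3mbtl2-203, and 265 for Ring1-201 against 276 for Ring1-203, over the 8 libraries.

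Levels of different genes were compared per kilobase of the counted transcript, as CPM per kb, which assumes even coverage along it. Averaged over the 8 libraries, the order was Ezh2 (124 CPM per kb), Eed (81.9), Max (56.2), Rnf2 (33.3), Pcgf6 (26.4), Suz12 (25.3), E2f6 (14.6), L3mbtl2 (12.6), Mga (4.94) and Ring1 (2.92). Ezh2 exceeded Eed, Eed exceeded Max and Max exceeded Rnf2 in all 4 Prmt5 KO and all 4 Control libraries. The neighbours Rnf2, Pcgf6, Suz12, E2f6 and L3mbtl2 were not in this order in every library, with E2f6 above L3mbtl2 in 2 Prmt5 KO and 2 Control libraries. L3mbtl2 exceeded Mga in all 8, and Mga exceeded Ring1 in 3 Prmt5 KO and 3 Control libraries. On the coding transcript, L3mbtl2 was at 15.4 ± 2.07 CPM per kb in Prmt5 KO and 18.1 ± 3.80 in Control, and Ring1 at 3.98 ± 1.19 CPM per kb in Prmt5 KO and 3.01 ± 2.13 in Control (SD, n = 4 each).

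The paralogous subunits of each complex were set against each other within a library. Rnf2 exceeded Ring1 per kb in all 8 libraries, by a ratio of 14.5, 9.72, 12.9 and 5.93 in Prmt5 KO 1 to 4, against 67.6, 17.4, 14.7 and 6.47 in Control 1 to 4. The ratio of 67.6 in Control 1 rests on its 6 Ring1 reads. On the log2 scale the ratio was 3.35 ± 0.575 in Prmt5 KO and 4.19 ± 1.40 in Control (SD, n = 4 each), a difference of -0.84 with a two-sided exact permutation p of 0.314, or 0.629 adjusted over the 2 ratios tested; the smallest p that 4 against 4 allows is 0.0286. Without Control 1 the difference was -0.21 (adjusted permutation p 0.943), and without Control 4 it was -1.34 (adjusted permutation p 0.0571). In that last setting every Prmt5 KO ratio lay below every remaining Control ratio, so the unadjusted p was the smallest that these libraries allow. With such a p for 1 ratio alone, the adjusted value could not fall under 0.05.

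Ezh2 exceeded Ezh1, the methyltransferase more typical of resting cells, per kb in all 8 libraries, by a ratio of 8.37, 24.3, 8.01 and 7.93 in Prmt5 KO 1 to 4, against 7.97, 12.6, 14.2 and 6.11 in Control 1 to 4. Prmt5 KO 2 was the highest and the other 3 Prmt5 KO libraries lay within the Control range. On the log2 scale the ratio was 3.41 ± 0.793 in Prmt5 KO and 3.27 ± 0.568 in Control (SD, n = 4 each), a difference of 0.14 with an exact permutation p of 0.771 (adjusted 0.771), and it was -0.25 without Prmt5 KO 2.

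Among the PCGF proteins, each of which defines its own PRC1 variant, Pcgf5 was at 60.6 ± 9.0 CPM per kb in Prmt5 KO and 74.0 ± 14.9 in Control, above Pcgf6 at 25.5 ± 6.29 CPM per kb in Prmt5 KO and 27.3 ± 9.72 in Control (SD, n = 4 each). Pcgf3 was at 11 ± 2.99 CPM per kb in Prmt5 KO and 5.73 ± 0.782 in Control, and Pcgf2 was lowest at 1.51 CPM per kb in Prmt5 KO and 1.53 in Control. Bmi1 was at 7.89 ± 7.42 CPM per kb in Prmt5 KO and 4.90 ± 1.44 in Control, where the value of 18.7 in Prmt5 KO 1, the library with somatic markers, exceeded all others. Pcgf1 was at 9.41 ± 12.6 CPM per kb in Prmt5 KO and 6.27 ± 2.83 in Control, and its highest value was 28.2 in Prmt5 KO 4.

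**Figure D3:**
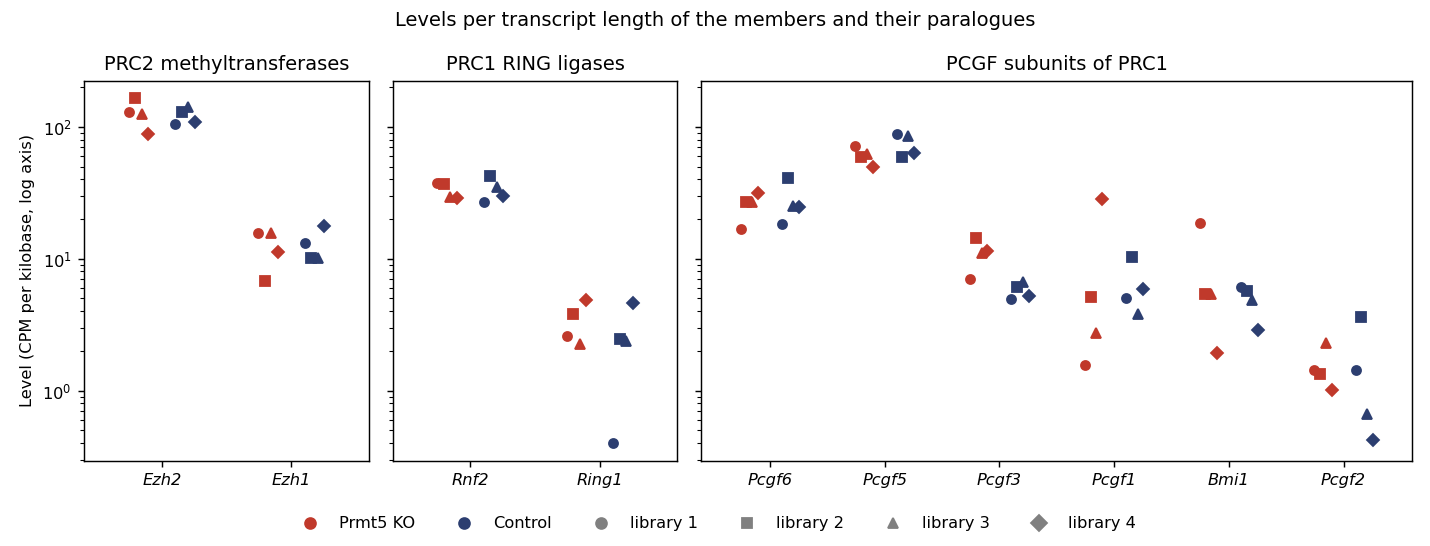
Level of paralogous Polycomb subunits in each library, in CPM per kb on a log axis, with Prmt5 KO left of Control. Ezh2 lies above Ezh1 and Rnf2 above Ring1 in all 8 libraries, and Pcgf5 has the highest mean of the PCGF genes in both groups.

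Partners of the members were described from lists of known subunits. Of 12 PRC2 partners, 11 were tested (Lcor was not), 7 with a log2 fold change above 0 and 4 below, a median of 0.15, and none was called by edgeR, DESeq2 or limma voom or had an unadjusted p under 0.05. Phf1, a Polycomb-like protein that helps PRC2 bind chromatin, was scarce at 6.24 ± 3.04 CPM in Prmt5 KO and 3.25 ± 2.10 CPM in Control (log2 fold change 0.93 ± 0.737, adjusted p 0.791 by edgeR), and it shares 810 exon bases with Cuta on the opposite strand. Its relative Phf19 was at 58.5 ± 26.9 CPM in Prmt5 KO and 80.0 ± 24.9 CPM in Control (log2 fold change -0.44, adjusted p 0.803). The most abundant partners were the histone chaperone Rbbp7, at 509 ± 108 CPM in Prmt5 KO and 457 ± 59.3 CPM in Control, and Jarid2, which recruits PRC2, at 279.7 ± 42.3 CPM in Prmt5 KO and 259 ± 37.7 CPM in Control (SD, n = 4 each). The counted transcript of Jarid2 is annotated as a retained intron.

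Of 7 PRC1.6 partners, 6 were tested, 3 above 0 and 3 below, with a median of -0.05 and none called by edgeR, DESeq2 or limma voom or at an unadjusted p under 0.05. The deacetylase Hdac1 was at 178, 193, 224 and 285 CPM in Prmt5 KO 1 to 4, against 187, 159.8, 144 and 189.6 CPM in Control 1 to 4 (log2 fold change 0.37, adjusted p 0.654 by edgeR). Hdac2, its paralogue, had 148 CPM in Prmt5 KO 1 and 317 to 336 CPM in the other Prmt5 KO libraries, against 278 to 341 CPM in Control. The WD-repeat protein Wdr5 had 555 CPM in Prmt5 KO 4 and 307 to 348 CPM in the other Prmt5 KO libraries, against 307 to 370.1 CPM in Control. The remaining partner, Cbx3, had at most 0.844 CPM in any library and was below the filter. Cbx3 is a heterochromatin protein with near-identical copies in the genome, and whether counting split its reads among them was not tested.

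Of 21 genes of other PRC1 complexes, 18 were tested, 10 above 0 and 8 below, with a median of 0.02. None was called by edgeR, DESeq2 or limma voom. An unadjusted p under 0.05, which 8.15% of all genes tested had, was found for 1 gene. That gene was Pcgf3, with 54.4, 110.5, 84.8 and 88.2 CPM in Prmt5 KO 1 to 4, against 38.2, 47.3, 51.0 and 40.1 CPM in Control 1 to 4. Every Prmt5 KO library lay above every Control library, which holds for 2.63% of all genes tested. The log2 fold change was 0.94 ± 0.274 (SE), with an unadjusted p of 0.00431 and adjusted p-values of 0.377 by edgeR and 0.0623 by DESeq2, so the difference did not pass the test. Bcor, the corepressor of the Pcgf1 complex, was at 68.7 ± 16.6 CPM in Prmt5 KO and 46.9 ± 8.67 CPM in Control (log2 fold change 0.55, adjusted p 0.647 by edgeR). The most abundant were Phc1, a polyhomeotic protein, at 249 ± 66.1 CPM in Prmt5 KO and 266 ± 50.0 CPM in Control, and Kdm2b, which binds unmethylated CpG islands, at 221 ± 49.4 CPM in Prmt5 KO and 243 ± 18 CPM in Control (SD, n = 4 each). Kdm2b shares 627 exon bases with Rnf34 on the opposite strand.

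Of 10 enzymes and cofactors that remove Polycomb marks, 9 were tested, 6 above 0 and 3 below, with a median of 0.07. None was called by edgeR, DESeq2 or limma voom. An unadjusted p under 0.05, which 8.15% of all genes tested had, was found for 1 gene. Bap1, the deubiquitinase that removes ubiquitin from histone H2A, had 90.5, 117, 112 and 227 CPM in Prmt5 KO 1 to 4, against 78.3, 81.3, 105 and 85.7 CPM in Control 1 to 4. Prmt5 KO 4 stood far above the rest, and Prmt5 KO 1 lay within the Control range. Between the groups, the log2 fold change came to 0.64 ± 0.276 (SE, edgeR adjusted p 0.579), and it was 0.29 without Prmt5 KO 4. Mysm1, another deubiquitinase of histone H2A, was at 54.0 ± 14.9 CPM in Prmt5 KO and 40.2 ± 8.45 CPM in Control, and the Bap1 cofactor Foxk2 at 119.9 ± 24.1 CPM in Prmt5 KO and 114 ± 27.2 CPM in Control (SD, n = 4 each).

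Of 25 germline genes that PRC1.6 represses in mouse embryonic stem cells, 23 had counts and 20 were tested. Their log2 fold change was below 0 for 15 and above 0 for 5, with a median of -0.33, against 47.3% below 0 over all genes tested. None was called by edgeR or limma voom, 2 had an unadjusted p under 0.05 and DESeq2 called 1. Among all genes tested, 8.15% had such a p, and DESeq2 called 1.02% of those it gave an adjusted p. Leaving out Control 1 gave 8 of 20 below 0 and a median of 0.03, so in the fit without a block the direction of the list rests on that library. With a replicate block and all libraries, 14 lay below 0, with a median of -0.23. The list summed to 1171, 780, 934 and 1338 CPM in Prmt5 KO 1 to 4, against 1898, 834, 1061.5 and 1518 CPM in Control 1 to 4. The summed level of the list was highest in Control 1, as was Dazl, an RNA-binding protein of germ cells, at 163, 56.2, 97.2 and 185 CPM in Prmt5 KO 1 to 4, against 331, 79.5, 110.3 and 237 CPM in Control 1 to 4 (log2 fold change -0.61, adjusted p 0.760 by edgeR). Ddx4, a germ cell RNA helicase, was at 161 ± 77.0 CPM in Prmt5 KO and 154 ± 61.1 CPM in Control (log2 fold change 0.05, adjusted p 0.987; SD, n = 4 each).

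Tdrkh, a Tudor domain protein of the piRNA pathway, was the gene that DESeq2 called (adjusted p 0.0311). It had 55.0, 53.3, 50.4 and 36.6 CPM in Prmt5 KO 1 to 4, against 110.7, 67.9, 84.5 and 129 CPM in Control 1 to 4. Every Prmt5 KO library lay below every Control library, which holds for 2.27% of all genes tested. This amounts to a log2 fold change of -1.01 ± 0.267 (SE, edgeR adjusted p 0.292), and its exons share 2255 bases with Oaz3 on the opposite strand, which had no counts. Zcwpw1, a reader of histone marks in meiosis, was at 73.2 ± 29.3 CPM in Prmt5 KO and 135 ± 54.7 CPM in Control (log2 fold change -0.89, adjusted p 0.510 by edgeR; SD, n = 4 each), and it shares 468 exon bases with Pilra.

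Split by the promoter letters shown above, the 11 tested germline genes with CACGTG had a median of -0.23 for the log2 fold change, 7 of them below 0, and the 8 tested genes without it a median of -0.41 with 7 below 0. For TCCCGC, the 9 tested genes with it had a median of -0.23 with 6 below 0. The 10 tested genes without it had a median of -0.40 with 8 below 0. The remaining tested gene had no promoter in the table. Neither the difference between these subsets nor their dependence on Control 1 was tested. Of the genes whose promoters are printed, Hormad1 was at 28.1 ± 7.16 CPM in Prmt5 KO and 25.5 ± 16.4 CPM in Control, and Mael at 47.4 ± 30.3 CPM in Prmt5 KO and 42.2 ± 20.1 CPM in Control. Sycp3 was at 7.96 ± 4.95 CPM in Prmt5 KO and 9.10 ± 5.25 CPM in Control (SD, n = 4 each). Slc25a31 had 24.0, 19.8, 21.3 and 28.2 CPM in Prmt5 KO 1 to 4, against 89.1, 7.14, 17.0 and 44.3 CPM in Control 1 to 4. For all 4 genes the groups overlapped, with edgeR adjusted p-values of 0.979 for Hormad1, 0.971 for Mael, 0.972 for Sycp3 and 0.783 for Slc25a31.

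**Figure D4:**
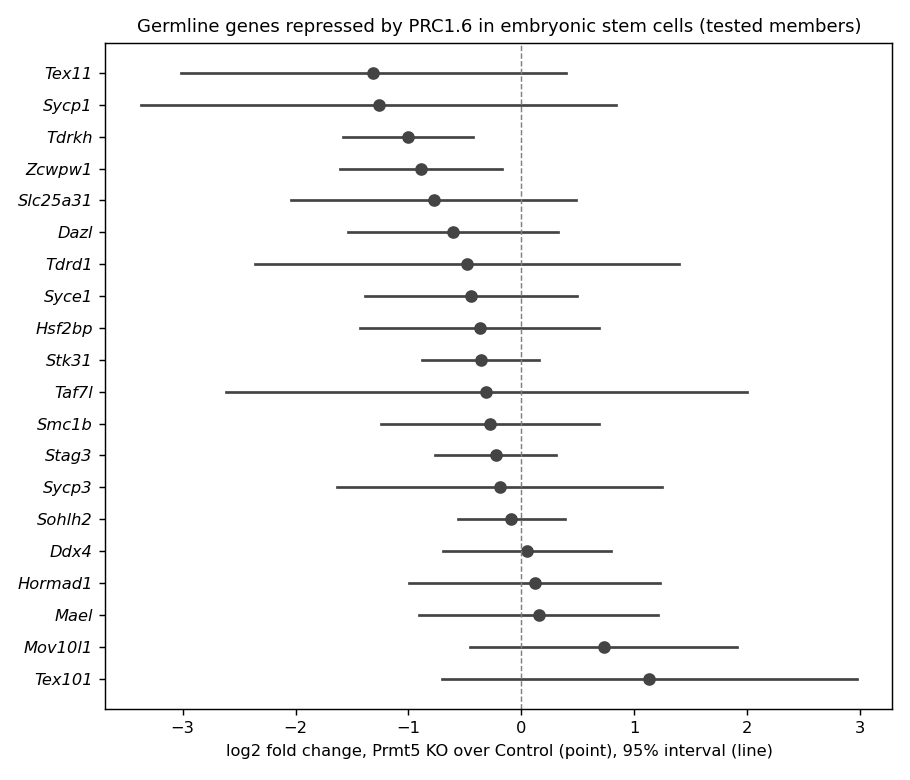
Log2 fold change, Prmt5 KO over Control, of the 20 tested germline genes repressed by PRC1.6 in mouse embryonic stem cells, as points in rising order with 95% intervals from edgeR as lines. The points lie below 0 for 15 genes, and without Control 1, which is not plotted separately, for 8.

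Developmental regulators that PRC2 represses in mouse embryonic stem cells were mostly silent: of 32 listed, 10 had no listed count in any library, 15 were below the filter and 7 were tested. Those below the filter reached at most 29.7 CPM, a value of Gata4, a factor also of the somatic gonad, in Prmt5 KO 1; Gata4 was at most 8.27 CPM elsewhere. Of the 7 tested, 5 lay below 0 and 2 above, with a median of -0.86. None was called by edgeR, DESeq2 or limma voom. An unadjusted p under 0.05, which 8.15% of all genes tested had, was found for 1 gene. Pax6, an eye and brain factor, had 2.53, 1.36, 5.06 and 0.997 CPM in Prmt5 KO 1 to 4, against 6.25, 0.893, 7.13 and 25.7 CPM in Control 1 to 4 (log2 fold change -2.0 ± 0.901, adjusted p 0.598 by edgeR), and the Control mean rests largely on Control 4. Cdx2, a trunk and gut factor, was at 2.42 ± 0.680 CPM in Prmt5 KO and 5.00 ± 3.03 CPM in Control (adjusted p 0.750). The cell cycle inhibitor Cdkn1c was at 12.5 ± 8.87 CPM in Prmt5 KO and 7.18 ± 5.77 CPM in Control, and the signalling protein Bmp4 at 4.52 ± 4.00 CPM in Prmt5 KO and 8.22 ± 5.46 CPM in Control (SD, n = 4 each), neither past the test.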

How the data were processed

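RNA was measured in 8 libraries, 4 Prmt5 KO and 4 Control, grouped by the labels. The authors deposited read counts as whole numbers, 1 per transcript and library. The submitters' processing notes name GRCm38 and mm10; no source used here gives the aligner, the counter or its strand option. Identifiers were matched to GENCODE M21: 64258 of 66262 matched, giving 21444 genes, and the 2004 unmatched ones, with 1.75% to 1.90% of a library's counts, were left out. Transcripts of a gene share reads, so each gene took the value of whichever transcript had the highest total. Depth was 1811428 to 6549504 counts per library, and the common biological coefficient of variation of 0.488 limits what a group of 4 can resolve.

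Genes were kept by filterByExpr (minimum count 10, minimum total 15), leaving 10990, scaled by TMM and tested with edgeR's quasi-likelihood test (robust) with Benjamini-Hochberg adjustment at 0.05, and the test was checked on simulated data. The standard error is the size of the log2 fold change divided by the square root of F, and SD are over libraries. DESeq2, limma voom, another scaling and filter, a replicate block, summed transcripts and left-out libraries were alternatives. Sequences and motifs came from RefSeq promoters on GRCm38.p6, matched by symbol for 10 of 10 members. The members and lists were chosen with earlier results of these data known. Genes named were Prmt5, the members and, from each cell type list, the 2 most abundant. From each other list they were any called gene or, with none, the 2 of smallest unadjusted p, plus the 2 most abundant. Others (Pcgf5, Pcgf2, Pcgf1, Bmi1, Ezh1, Lcor, Cbx3, Gata4, Meiob, Nr5a1, Cdh5, Kdr, Tie1 and the genes of the printed promoters) were chosen after their values were seen or for contrast. Fits used edgeR 4.0.16, DESeq2 1.42.0 and limma 3.58.1 under R 4.3.3, and plots matplotlib 3.10.9.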

Additional observations from a re-analysis of the deposited data

Results flagged for a closer look

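A library far from the other 3 of its group was found in 7 of 84 sets of 4 values searched (genes and ratios, in each group). The cutoff would flag about 1 in 20, or 4.2, if the sets were independent and normally distributed. CPM and ratios were used without logs and come from the same libraries, so this need not hold here. Among the members, Suz12 in Prmt5 KO 1 was high at 163 CPM. Prmt5 KO 1 was also low in Hdac2 at 148 CPM and high in the somatic markers Acta2 at 208 CPM and Col3a1 at 115 CPM. Prmt5 KO 4 was high in Wdr5 at 555 CPM, and Prmt5 KO 2 had the highest ratio of Ezh2 to Ezh1, 24.3. Among endothelial markers, Tek was at 28.9 CPM in Control 1, above the other Control libraries.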

How the results depend on the processing

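None of the 10 members was called in any of the 17 alternatives. The number of genes called in all, 3 by edgeR, was 107 with DESeq2, 1 with limma voom, 7 with no filter on low counts, 1 with the replicate block, 1 with transcripts summed, 0 without Control 2 and Control 3 (713 at an unadjusted p under 0.05), 1 without Prmt5 KO 1 and Prmt5 KO 4, and 1 to 2 on leaving out 1 library. The call of Prmt5 was lost with limma voom, the block, summed transcripts, without either pair of libraries named above, and on leaving out any 1 library but Control 1. The labels do not say whether replicate numbers pair libraries, and a pairing was not tested. Deviations of same-numbered libraries correlated at 0.0694, 0.0396, 0.00226 and 0.0504 over 10990 genes. Those of differently numbered libraries correlated at -0.0937 to 0.0360. The replicate block changed no member's call. With the replicate block, the difference of each log2 ratio is by construction that without it. It was -0.84 for Rnf2 to Ring1 and 0.14 for Ezh2 to Ezh1. The exact paired permutation p-values of these ratios, adjusted over the 2, were 0.25 and 0.625. Since 4 pairs allow no p under 0.125, neither could pass.

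The median of the members ranged from 0.06 to 0.22 on leaving out 1 library and was 0.25 without Control 2 and Control 3. The difference in the Rnf2 to Ring1 ratio ranged from -1.34 to -0.21, and that of Ezh2 to Ezh1 from -0.25 to 0.33. Mga kept a log2 fold change of 0.45 to 0.78 in all 17 alternatives, with an adjusted p of 0.394 to 0.859. Members near 0 changed sign, and the cause was not tested. On leaving out 1 library, the log2 fold change ranged from -0.070 to 0.21 for Ezh2, -0.013 to 0.39 for Suz12, -0.24 to 0.18 for Pcgf6, -0.19 to 0.37 for E2f6 and -0.11 to 0.13 for Rnf2. With limma voom it was 0.016 for Pcgf6, -0.093 for E2f6, 0.081 for Rnf2 and -0.16 for Ddx4, and with no filter 0.026 for Rnf2. Without Control 2 and Control 3 it was -0.046 for Suz12, 0.25 for Pcgf6, 0.23 for Rnf2, 0.038 for Phc1 and -0.32 for Ddx4. Without Prmt5 KO 1 and Prmt5 KO 4 it was -0.044 for Suz12, -0.13 for Max, -0.026 for Wdr5, 0.056 for Hdac2, -0.47 for Ddx4, -0.0019 for Kit, -0.20 for Acta2, -1.29 for Col3a1 and 0.044 for Csf1r.

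Other ranges on leaving out 1 library that crossed 0 were -0.31 to 0.28 for Ddx4, -0.27 to 0.041 for Phc1, -0.012 to 0.26 for Foxk2, -0.0064 to 0.24 for Rbbp7, -0.23 to 0.070 for Hdac2, -0.061 to 0.27 for Wdr5, -0.090 to 0.0013 for Dppa4, -0.25 to 3.88 for Acta2 and -0.89 to 2.76 for Col3a1. The germline list had 8 to 17 genes below 0 and a median of -0.48 to 0.03 on leaving out 1 library, an alternative chosen after seeing the data. Ring1 had the fewest reads of the members, 6 to 67 in a library.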

Other observations

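Mga-215, a shorter coding transcript of Mga, was counted at 40.9%, 42.7%, 34.8% and 27.3% of the level of Mga-204, the transcript used above, in Prmt5 KO 1 to 4, against 17.9%, 40.9%, 22.3% and 26.1% in Control 1 to 4. The groups overlapped, at 36.4% ± 6.94 in Prmt5 KO and 26.8% ± 9.96 in Control (SD, n = 4 each), and the difference was not tested. Lcor, a gene whose locus also encodes a PRC2 partner, fell below the filter, with 0.675 to 1.5 CPM in Prmt5 KO and 1.10 to 8.93 CPM in Control. Meiob, a meiotic DNA-binding protein, was also below it, with 27.7 CPM in Prmt5 KO 1 and 0 to 0.744 CPM in the other Prmt5 KO libraries, against 0.352 to 1.65 CPM in Control.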
